A study of Mus musculus with 74 samples.

Results

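ChIP-seq peaks of Gm13051, a mouse KRAB zinc finger protein (KRAB-ZFP), were examined for what they held at ETn retrotransposons and beyond them. The members were the rows of the deposited peak table that carry the name Gm13051, 550 of 53255 peaks. Gm13051 was expressed with an N-terminal 3XFLAG tag in F9 cells, a mouse embryonal carcinoma line. The stable lines carried a codon-optimised open reading frame on a Sleeping Beauty transposon, and puromycin-resistant clones were pooled, so the protein came from a transgene and not from its own locus. The comparison was with the 17 other KRAB-ZFPs tagged with FLAG in F9 cells, 20178 peaks, all from ChIPs with an anti-FLAG antibody. For 6 of the 17 the labels give looser thresholds (an enrichment over 10, and in 2 of these p under 1e-05). Each protein had 1 sample, so no value has a replicate error, and each Wilson interval (95%) covers counting error only. Read depth is not in the table, and the authors kept a Gm13051 peak only at p under 1e-10 and an enrichment over 20 against both input and a FLAG control ChIP, so a missing peak does not show missing binding.

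KRAB-ZFPs bind DNA through an array of C2H2 zinc fingers and, through their KRAB domain, recruit the corepressor KAP1 (TRIM28), which brings histone methylation and silencing. ETn elements (early transposons) are mouse retrotransposons with a long terminal repeat (LTR) at each end. They lack working genes of their own and move with the proteins of related MusD elements, and new ETn insertions are a known source of mouse mutations. The gene of Gm13051 lies on chromosome 4 at 146064699 to 146094022 (mm9, plus strand), and its annotated protein of 668 residues holds 14 C2H2 fingers. No Gm13051 summit lay near it: the nearest was 831287 bp from the closest of its annotated transcript starts.

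The sequence to which these results refer is the 50-base stretch of an ETn element (MMETn) that the study placed in a reporter construct for Gm13051, here called the reporter site. It is shown with the 4 versions of it found most often in ETn-aligned Gm13051 peaks, 5′ to 3′. Capitals mark the core, positions 15 to 34, which is the 20-base stretch with the highest match over those peaks.
reporter site: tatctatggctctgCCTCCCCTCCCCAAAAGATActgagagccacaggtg
version in 32 peaks: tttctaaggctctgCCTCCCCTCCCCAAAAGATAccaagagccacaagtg
version in 24 peaks: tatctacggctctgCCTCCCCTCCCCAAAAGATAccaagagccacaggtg
version in 21 peaks: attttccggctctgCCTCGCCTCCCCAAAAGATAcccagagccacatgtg
another version in 21 peaks: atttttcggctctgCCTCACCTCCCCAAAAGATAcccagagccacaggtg

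Gm13051 peaks were almost all on ETn sequence. Of 550 peaks, 514 (93.5%, Wilson interval 91.1% to 95.2%) aligned to at least 3 intact ETn elements at 80% identity over 100 bp. Intact elements are the 418 that the capture sequences of the study delimit in mm9, on the same strand and 2000 to 10000 bp apart. Their inner sequence was not checked, so any MusD elements among them were not told apart from ETn. Among the other 17 FLAG proteins the share lay between 0% and 76.2% (median 1.34%), and over their pooled peaks it was 14.7%. Gm13051 had the highest share of the 18 (two-sided exact permutation test, p = 0.0556, the smallest value 18 placements can give, so this design cannot reach 0.05). The protein next in order, Gm21082, had 1684 of 2211 peaks aligned, but only 0.407% of its peaks aligned to 10 or more elements, against 92.4% of Gm13051 peaks. Zfp961, which had 19.6% by the first criterion, kept 19.1% by the second, and Gm13225 went from 21.2% to 9.08%.

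**Figure D1:**
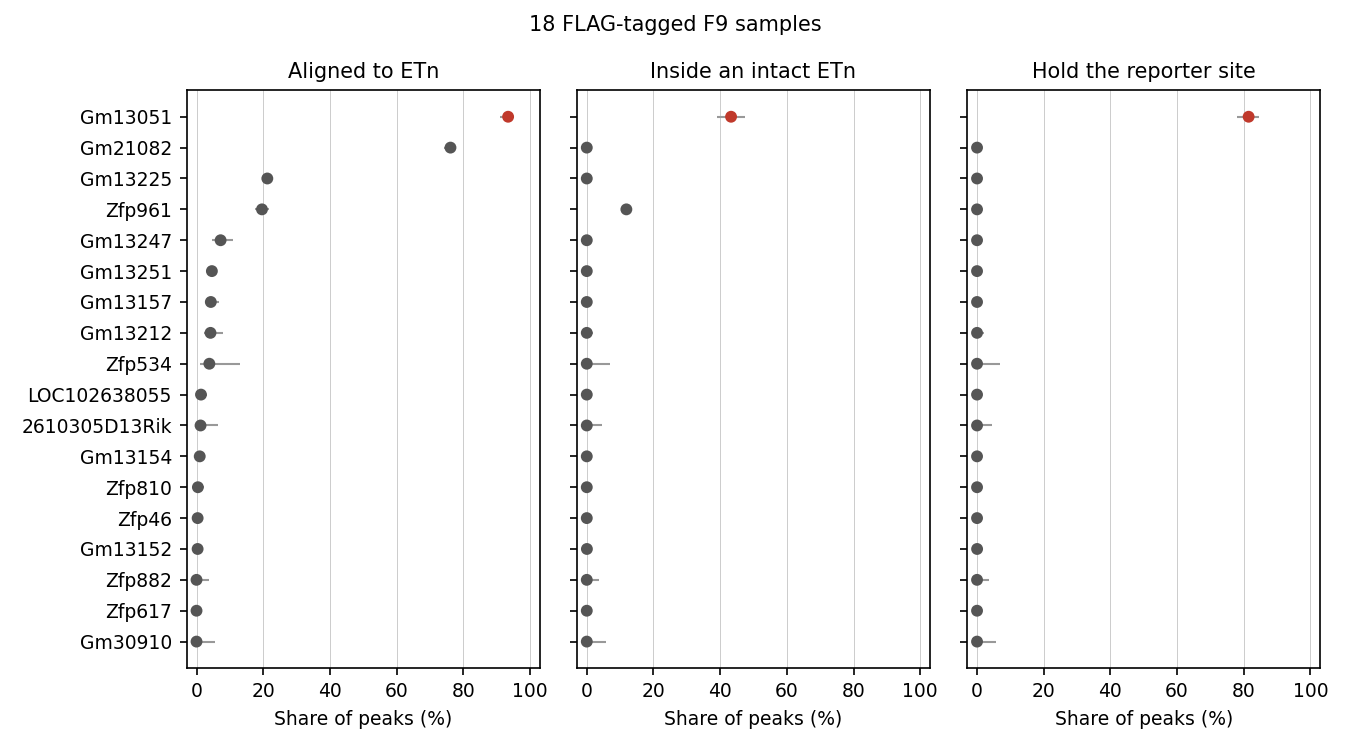
Share of peaks (%) aligned to ETn, inside an intact ETn element and holding the reporter site, for each of the 18 FLAG-tagged F9 samples, with Wilson intervals. Gm13051 (red) is highest in all 3 panels, with 93.5%, 43.3% and 81.5%.

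Inside intact elements lay 238 Gm13051 summits (43.3%, Wilson interval 39.2% to 47.4%), each in a different element, which is 56.9% of the 418. Of the pooled peaks of the other FLAG proteins 0.867% did so, nearly all of them peaks of Zfp961, of which 173 (11.9%) lay inside, while 15 of the 17 proteins had none there (two-sided exact permutation test, p = 0.0556). The other 276 aligned Gm13051 peaks lay in ETn-like sequence outside these elements. The classes had similar heights: the median fold enrichment was 63.2 (quartiles 40.5 and 82.7) inside and 63.1 (quartiles 42.1 and 84.3) outside. The reporter site was held by 86.1% of the peaks inside and by 87.3% of those outside.

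Along the elements, Gm13051 bound near the 3′ end. Its summits lay at a median of 650 bp upstream of the 3′ LTR (quartiles 618 bp and 671 bp, range 427 bp to 3000 bp), and 226 of 238 (95.0%) lay between 500 bp and 800 bp. The distance to the 3′ LTR was nearly constant whatever the length of the element, which ranged from 2203 bp to 9923 bp (Spearman's rho 0.02 over 238 elements), while the distance to the 5′ LTR followed the length (rho 0.98). Other KRAB-ZFPs on the same elements had other places. Zfp738, an HA-tagged protein, had 7 summits from 1190 bp to 1337 bp upstream of the 3′ LTR. Rex2 and Zfp600, also HA-tagged, had medians of 187 bp and 199 bp downstream of the 5′ LTR in 46 and 10 elements, and Zfp961 a median of 17 bp in 171 elements. Elements with both a Gm13051 and another summit numbered 75 of 171 for Zfp961, 24 of 46 for Rex2, 9 of 10 for Zfp600 and 1 of 7 for Zfp738. Of all 418 elements, 56.9% had a Gm13051 summit, and whether these counts depart from that share was not tested. Gm13154 had no summit inside an intact element among 1561.

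**Figure D2:**
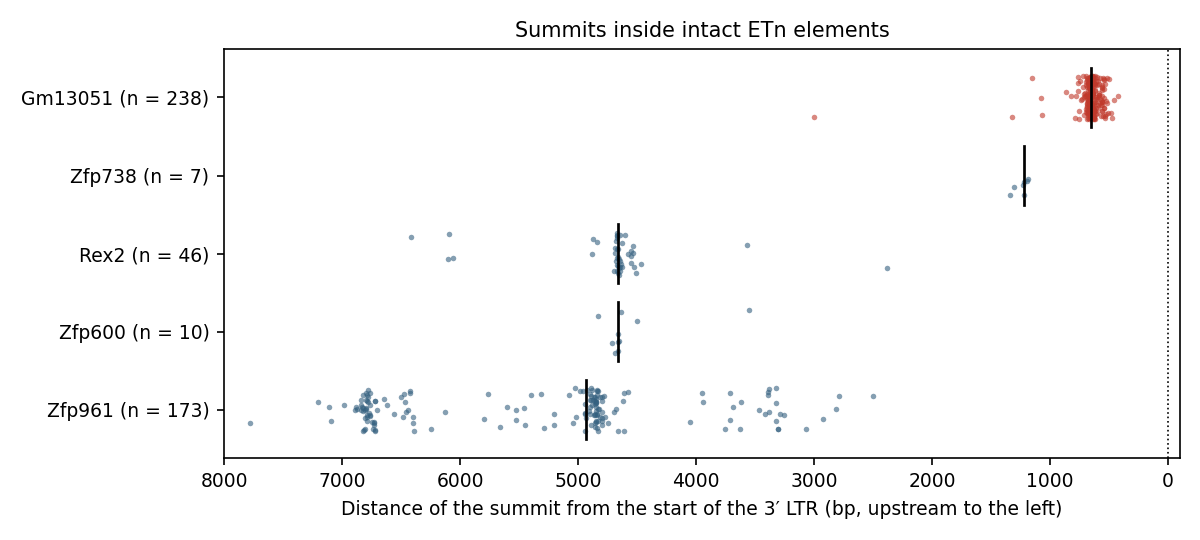
Distance (bp) of each summit from the start of the 3′ LTR inside intact ETn elements, for Gm13051 and 4 other KRAB-ZFPs. Each point is 1 summit and the bar is the median. Gm13051 summits form 1 narrow group with a median of 650 bp.

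The reporter site (at most 10 mismatches without gaps, either strand) was in the 200 bp window of 448 Gm13051 peaks (81.5%, Wilson interval 78.0% to 84.5%). It was in 1 of 20178 peaks of the other FLAG proteins (0.00496%), a Gm13152 peak, and in 0.00517% of all 200 bp windows of the genome (two-sided exact permutation test over samples, p = 0.0556). The study's reporters held target sites that it had already identified for these proteins. The site was therefore not chosen apart from the Gm13051 peaks, and the comparison describes and does not test its presence there. No Gm13051 peak held the site in the windows 1 kb to either side. In the 446 aligned peaks that held it, its centre lay a median of 9 bp from the summit, and 417 (93.5%) lay within 50 bp.

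The peaks did not hold the reporter site as such. Only 1 peak carried it without a mismatch, and the 446 aligned peaks held 229 different versions, 190 of them in 1 peak each. Positions 36 and 7 of the reporter site differed from nearly every occupied copy: 96.5% had T36C, and T7A or T7C stood in 61.8% and 34.3% (positions counted from 1 at the 5′ end, the reporter's base first). The core, which was chosen for its match in these peaks, had a mean match of 93.7% per position over all 514 aligned peaks, against 76.4% outside it, where positions such as 36 differ from the reporter site alike in most copies. Among the 514 aligned peaks, 252 held the core without a mismatch and 478 (93.0%) with at most 3.

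Peak height went with the match to the site. The median fold was 79.4 (quartiles 64.8 and 91.6) in the 52 aligned peaks with at most 3 mismatches and 74.6 (55.1 and 90.8) in 176 with 4 to 6. It was 64.8 (47.0 and 81.0) in 134 with 7 or 8, and 46.2 (30.6 and 74.1) in 84 with 9 or 10. The quartiles overlapped between neighbouring classes, and over the 446 peaks Spearman's rho of fold and mismatches was -0.31, a description over sites of 1 ChIP. The version shown first had a median fold of 70.8 over its 32 peaks (32.4 to 128.0). The version with C19G, 9 mismatches in all, had a median of 42.1 (24.3 to 55.1) over 21 peaks. That with C19A, 8 mismatches in all, had one of 50.2 (27.6 to 82.7). A further version went the other way. It had 8 mismatches, all outside the core, and a median of 88.8 (55.1 to 116.7) over 19 peaks. In the 68 aligned peaks without the site the median fold was 29.2. Of these 68, 23 held the site within 400 bp around the summit, 31 more held there the core with at most 3 mismatches, and 14 held neither.

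**Figure D3:**
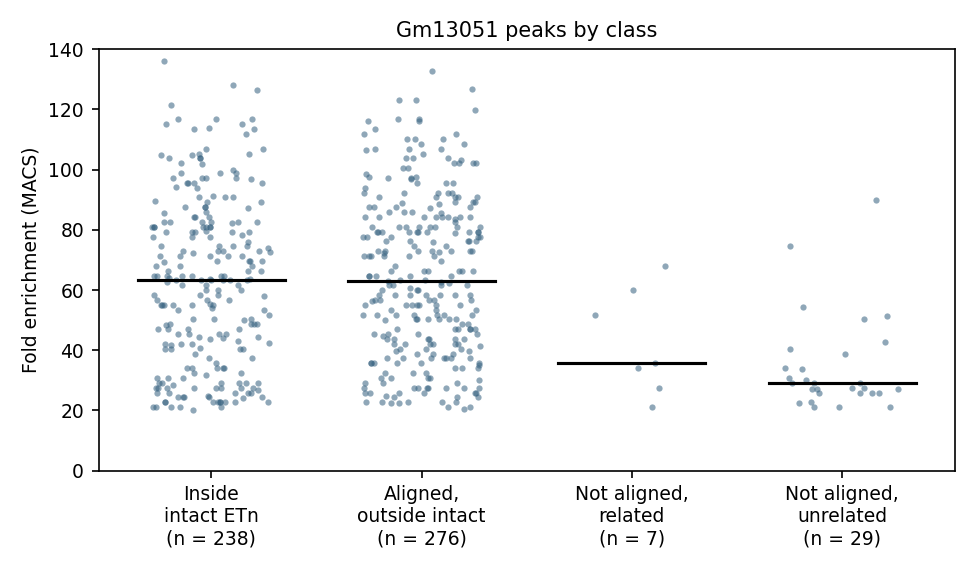
Fold enrichment given by MACS for each Gm13051 peak, in 4 classes: inside an intact ETn, aligned to ETn outside intact elements, and not aligned, split into 7 windows related to each other and 29 unrelated ones. Each point is a peak and the bar is the median. Peaks not aligned to ETn reach 89.9 but have lower medians.

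To see which copies of the site Gm13051 left out, every copy in the genome was listed, a step chosen after the peaks were seen. Of 661 copies with at most 10 mismatches, 461 (69.7%, Wilson interval 66.1% to 73.1%) had a Gm13051 summit within 100 bp and are called occupied. The share was 94.5% for the 55 copies with at most 3 mismatches and 88.6% for 79 with 7. It was 69.4% for 98 copies with 8 mismatches, 55.9% for 118 with 9 and 23.3% for 116 with 10. Mismatches in the core went with a steeper course: 252 of 258 copies with an intact core were occupied (97.7%), against 71.1% of 239 with 1 core mismatch and 24.3% of 152 with 2. Where the core was intact, 8 to 10 mismatches outside it left 96.0% of 50 copies occupied. The core was itself chosen from occupied copies, so these shares describe and do not test it.

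**Figure D4:**
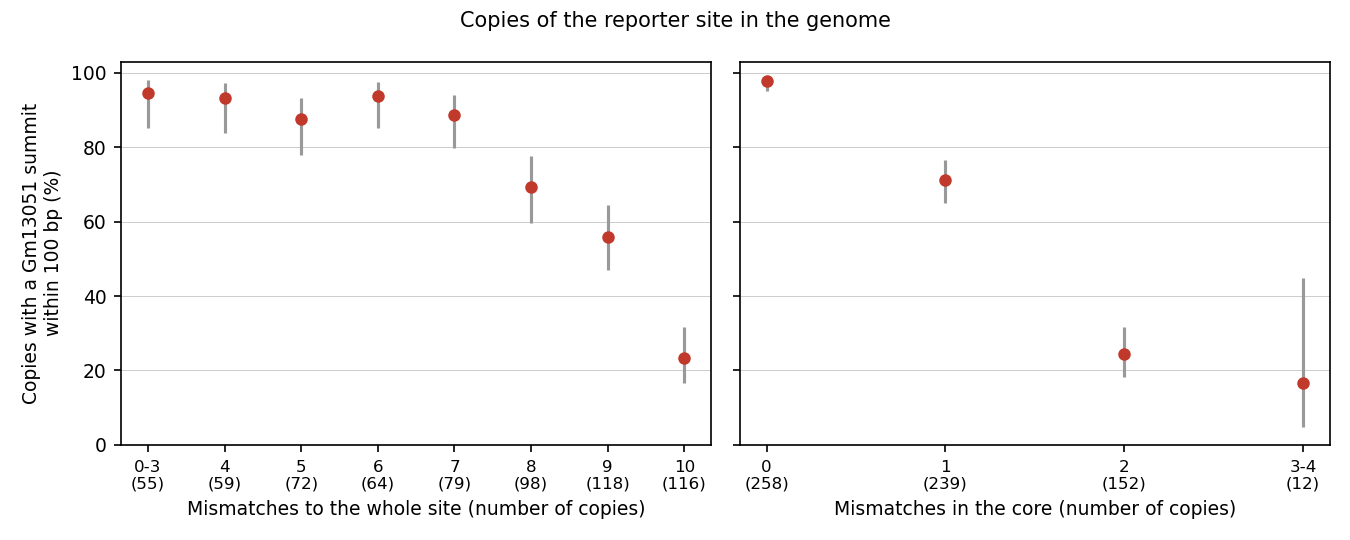
Share (%) of the copies of the reporter site in mm9 that have a Gm13051 summit within 100 bp, by mismatches to the whole site (left) and, among copies with at most 10, in the core (right), with Wilson intervals and the number of copies in brackets. It stays between 87.5% and 94.5% up to 7 mismatches, and drops from 97.7% to 24.3% between 0 and 2 core mismatches.

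A pair of substitutions in the core separated occupied from unoccupied copies most. C19G was in 7.16% of occupied and 60.5% of unoccupied copies, and A32G in 5.86% and 58.5%. Outside the core, others differed nearly as much: T1A (23.2% and 71.0%), A6C (7.38% and 56.5%) and G47T (7.59% and 57.0%). Of the 448 copies with neither C19G nor A32G, 407 were occupied (90.8%, Wilson interval 87.8% to 93.2%). With C19G alone 27 of 69 were occupied (39.1%) and with A32G alone 21 of 59 (35.6%). With both it was 6 of 85 (7.06%, interval 3.28% to 14.6%), and the summits there had folds from 21.1 to 29.2, close to the threshold of 20. G14A, just before the core, was in 2.39% of occupied and 53.0% of unoccupied copies and stands with both substitutions in the versions most often left unoccupied, which are shown here. The first was unoccupied in 35 places and occupied in 1, and the other unoccupied in 20 and occupied in 2.
unoccupied version 1: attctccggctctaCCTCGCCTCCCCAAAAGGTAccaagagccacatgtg
unoccupied version 2: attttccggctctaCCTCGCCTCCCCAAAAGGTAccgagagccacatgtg
Copies with these substitutions were also more repetitive, and reads of near-identical copies are spread over them by the mapping. The median copy number of the 24-mers around a site was 12 for occupied and 59.5 for unoccupied copies. Split by substitution, this went both ways. It was 9 and 3 with neither substitution and 30 and 18.5 with A32G alone. With C19G alone it was 56 and 97, and with both 62 and 79. Among copies with fewer than 50, 90.7% of 408 with neither substitution and 39.2% of 74 with one or both were occupied. Among copies with 50 or more it was 92.5% of 40 and 17.99% of 139, a difference in the same direction. Copy number was not matched inside either group, so its part and that of the substitutions cannot be told apart here. The substitutions are inherited together with others elsewhere in the element, and the part of each was not tested.

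**Figure D5:**
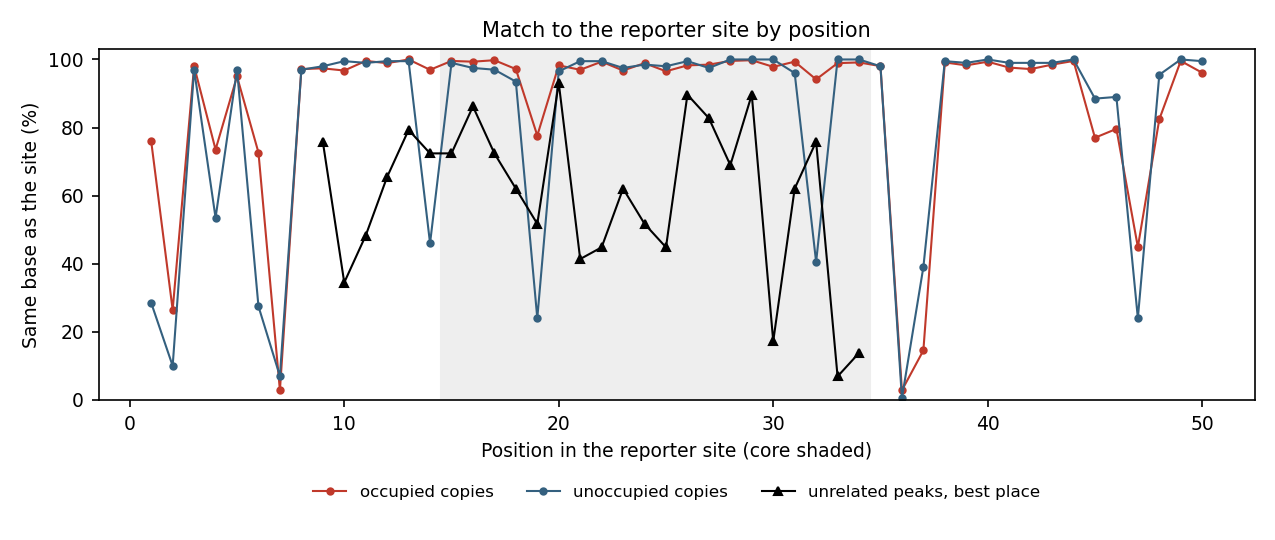
Share (%) of sequences with the same base as the reporter site at each of its 50 positions, for occupied and unoccupied genomic copies and for the best place of the fitted motif in the 29 unrelated peaks (positions 9 to 34). The core is shaded. Unoccupied copies dip within or beside the core at positions 14, 19 and 32 and, further from it, at positions such as 1, 6 and 47.

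Beyond ETn lay 36 peaks (6.55%). They were weaker than the aligned ones, with a median fold of 29.2 (quartiles 25.9 and 41.0) against 63.2, a median of 39 tags against 85 and a median called width of 419 bp against 547.5 bp. They were mostly single-copy sequence: the median 24-mer copy number was 1 in 32 of them, against a median of 13 over aligned peaks. An estimated false discovery rate of at most 5% in the authors' values was met by 537 of all 550 Gm13051 peaks. It was met by all 36 peaks beyond ETn, so it does not set them apart. By place, 20 were intergenic, 13 in introns, 2 in UTRs and 1 in a coding exon, while of the 514 aligned peaks 427 were intergenic, 85 in introns, 2 in UTRs and 0 in coding exons.

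Of the 36, 7 aligned to each other and formed a family, and 29 had no relative among them. In 6 of the 7 the window held the reporter site with 8 to 13 mismatches and an all but intact core (at most 2 mismatches). The window of the seventh, 185156 bp from the start of Lrrc3b, held no such site, but the 400 bp around its summit held one with 8 mismatches. At 70% identity over 50 bp each of the 7 aligned to 147 or more intact ETn elements, so they were ETn-like sequence that fell short of the 80% criterion. At that looser setting 9 of the 36 aligned to 3 or more elements. Among the 29 unrelated peaks, those in introns of Cgn and Dlg5 did so, with 9 and 6 elements. The peak nearest to Ccng1 aligned to 2 elements at 80% identity over 100 bp. Of the 7, 2 are shown, with the core in capitals.
near Il1rn, chr2:24184265-24184314, plus strand, mm9: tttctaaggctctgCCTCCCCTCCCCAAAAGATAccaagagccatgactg
near Vmn2r26, chr6:123940608-123940657, minus strand, mm9: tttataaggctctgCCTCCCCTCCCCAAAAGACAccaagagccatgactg
The first lay 8075 bp from the start of Il1rn, which encodes the interleukin 1 receptor antagonist, with a fold of 59.96. The other lay 34108 bp from the start of Vmn2r26, a vomeronasal pheromone receptor gene, with a fold of 51.6. The peak nearest to Dsg4, a desmosomal cadherin gene, lay 11171 bp from its start with a fold of 68.1. The other 3 with such a copy were in an intron of Ddx60 (fold 21.1), 40639 bp from the start of Acyp2 (34.0) and 244833 bp from that of Dync2h1 (27.5).

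The 29 unrelated peaks held no copy of the reporter site with 15 or fewer mismatches. The core with at most 3 mismatches was in 6 of all 36 peaks, all of them diverged copies of the related family, in 0 of the 36 windows 1 kb to the left and 0 to the right, in 1 of 20178 peaks of the other FLAG proteins (0.00496%) and in 0.0136% of genome windows. None of the 29 unrelated peaks held it with so few. At 6 mismatches or fewer it was in 8 of the 29 (27.6%), in 2 of their windows to the left and 1 to the right, and in 1.93% of the peaks of the other FLAG proteins, so by this measure most of the 29 did not hold the core.

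A motif search that did not use the reporter site, chosen after these values were seen, was then run on the 29 unrelated windows. It found GNNCTGCCTCCCNNCCNCAAANGAGN, in which N stands for a position with no base in at least 50% of the sites. Of its 19 set letters, 18 matched the reporter site when laid on positions 9 to 34, the stretch that ends with the core. Its best places lay a median of 13 bp from the summit, within 25 bp in 24 of 29. The same search on the windows 1 kb to the left and to the right found other patterns, which matched the reporter site at 8 of 14 and 7 of 15 letters and lay within 25 bp of the window's centre in 5 and 9 of 29. A motif always scores high in the windows it was fitted on, so it was scored in peaks it had not seen. The median score of the 29 was reached or passed by 476 of the 514 ETn-aligned Gm13051 peaks (92.6%), by 6 of the 7 related ones and by 5 of the 20178 peaks of the other FLAG proteins (0.0248%). None of the 58 windows to either side reached it.

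The best places of the motif in 6 of the 7 unrelated peaks among the 10 with the highest fold beyond ETn are set under the same stretch of the reporter site, to show how far each of these single-copy loci did or did not match it. They are written 5′ to 3′ on the strand of the reporter site, and capitals mark bases the same as in it. Coordinates are in mm9. The offsets of these places from the summit were -31 bp (Itpr2), 9 bp (Ski), -49 bp (Cpn2), 32 bp (Vit), 3 bp (Tmem17) and 19 bp (Tdh). Those in Itpr2, Cpn2 and Vit thus lay further from the summit than most best places of the motif.
reporter site, positions 9 to 34: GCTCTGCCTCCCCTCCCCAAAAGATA
Itpr2, chr6:146385543-146385568, plus strand: GtctTttCTatCCcatCCAAAgGAgt
Ski, chr4:154576688-154576713, plus strand: GCaCTGCCatCCaTCaaCAAAgGAgt
Cpn2, chr16:30186072-30186097, minus strand: cCaCTGCCTCCCtcCCtCAAAgGAgt
Vit, chr17:79003961-79003986, plus strand: GCagTtCCgCCCaTgCCCAcAAGggg
Tmem17, chr11:22467880-22467905, plus strand: GtTCTGCCTCCCacCCCCAActGcct
Tdh, chr14:64120885-64120910, plus strand: tacCTcatTatCCcCCtCAAAgGAgA
Over all 29 peaks, position 20 was the same as in the reporter site in 93.1% of the best places, positions 26 and 29 in 89.7% each and position 16 in 86.2%, while position 30 was the same in 17.2% and position 33 in 6.90%. The best places in the 58 windows to either side, chosen with the same motif, were the same as the reporter site at position 20 in 55.2%, at 26 in 74.1% and at 29 in 56.9%. The 26 bases shared a median of 16 with the reporter site in the peaks and of 12 in the windows to either side. At least 14 were the same in 23 of the 29 peaks and in 15 of the 58 windows. The motif was fitted on these 29 peaks and not on the 58 windows. Part of each difference between peaks and windows is therefore built in, and these values only describe. The places in Itpr2 and Tdh, with 13 and 14, were within what these windows gave. For the other places shown this was not determined.

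The highest peak beyond ETn lay in an intron of Itpr2, which encodes an inositol trisphosphate receptor that releases calcium from the endoplasmic reticulum. It had a fold of 89.9 with 145 tags, above the median of the ETn-aligned peaks, and its 200 bp were single-copy. A peak in an intron of Ski, a co-repressor in TGF-beta signalling, had a fold of 54.5. The peak 81484 bp from the start of Cpn2, a carboxypeptidase N subunit, had a fold of 51.5 and 135 tags, and the peak in an intron of Vit, which encodes an extracellular matrix protein, a fold of 50.2. The folds were 42.6 for the peak 55799 bp from the start of Tmem17, a gene of the ciliary transition zone, and 40.5 for that in an intron of Tdh, the threonine dehydrogenase that mouse embryonic stem cells use. The latter lay 1783 bp from the gene's start.

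Few Gm13051 peaks lay at gene starts or in coding exons, but no share over the genome was worked out for either. Of 550 Gm13051 peaks 21 (3.82%, Wilson interval 2.51% to 5.77%) lay within 1 kb of any annotated transcript start. The other FLAG proteins ranged from 2.49% to 50.05%, with 19.1% over their pooled peaks, and 2 of the 17, Gm21082 and Gm30910, were lower than Gm13051 (two-sided exact permutation test, p = 0.333, in the design that cannot reach 0.05). The only peak beyond ETn in a coding exon or within 1 kb of a protein-coding start was in Nup214, a nuclear pore gene, 718 bp from its start, with a fold of 33.9 and 44 tags. A protein-coding start lay within 20 kb of 19 of the 36 peaks beyond ETn (52.8%) and of 147 of the 514 aligned peaks (28.6%). Within 100 kb it was 91.7% and 72.2%.

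The 10 peaks with the highest fold were all on ETn sequence, 5 of them inside intact elements, and had folds of 116.9 to 136.1. The first lay 9308 bp from the start of Olfr1137, an odorant receptor gene, with 150 tags, and held the reporter site without a mismatch. Another lay 15067 bp from Olfr822, of the same family. The second in order had a fold of 132.8 and the most tags of the 10, 299, and lay 15225 bp from Csta, which encodes a cystatin. The others were nearest to Gm3222, Hps3, Ly6f, Lingo2, Ceacam1 and Akr1c13 or inside Cyp2j11, a cytochrome P450 gene. None of the 10 lay closer to a protein-coding start than the peak 5006 bp from Akr1c13, an aldo-keto reductase gene, where the fold was 121.5 and the window was single-copy.

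The study names Chst1 and Cd59a beside Gm13051 peaks. The nearest peak to Chst1, a sulfotransferase gene, lay 69444 bp from its start at chr2:92509208-92509407, with a fold of 90.8, 144 tags and the reporter site at 3 mismatches with an intact core. The nearest to Cd59a, which encodes an inhibitor of complement, lay 5458 bp from its start at chr2:103930400-103930599, in an intron of the neighbouring Cd59b. It had a fold of 56.7, 99 tags and the site at 6 mismatches, also with an intact core. Both were aligned to ETn and lay outside the delimited elements. Among 24 genes of KAP1 silencing, such as Trim28 and Setdb1, 23 were annotated and 0 had a start within 100 kb of a Gm13051 summit. The nearest was Cbx5, a heterochromatin protein gene, at 356346 bp. Over all 22238 protein-coding genes 5.53% had one that near.

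Gm13051 shared almost no loci with the other FLAG proteins. Of its 550 peaks, 4 (0.727%, Wilson interval 0.283% to 1.85%) overlapped a peak of another FLAG protein by at least 50 bp, and 0.0396% of the pooled peaks of the others overlapped one of Gm13051. Of these 4, 3 lay beyond ETn. Among them were a peak 14001 bp from Fancl, shared with Gm13154, and a peak 257972 bp from Ccng1, shared with 2610305D13Rik, Gm13212 and Zfp961. An aligned peak nearest to Myef2 was shared with Gm13152. With Gm13157, Zfp810 and Zfp882, 8 proteins tied at 1 shared locus each. The other 33 of the 36 peaks beyond ETn were called for Gm13051 alone among the FLAG proteins.

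By sequence copy number, 293 Gm13051 peaks (53.3%) were multi-copy, with a median 24-mer copy number of at least 10. Of the 18 FLAG samples Gm21082 and Gm13157 had higher shares, and 19.6% of the pooled peaks of the others were multi-copy (two-sided exact permutation test, p = 0.167).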

How the data were processed

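The authors aligned reads to mm9 with Bowtie and called peaks per sample with MACS 1.4.2, per the labels (p under 1e-10 and enrichment over 20 for Gm13051). Each peak was set to 200 bp around its summit. The authors deposited per peak a raw count of tags, a score (from the MACS p-value), a fold enrichment as a ratio, and a false discovery rate in percent. These values were used only to describe, rank and filter. Reads with several equally good places were given 1 place, so peaks may shift between near-identical copies. Of 68 names, 1 (244 rows) matched no label and was not used. ETn elements were delimited by 1221 of 1274 capture sequences that matched mm9 exactly (NCBIM37, gencode vM1), which lie at the inner ends of both LTRs, so distances run from there and not from the start of the 5′ LTR. Alignment used blastn 2.17.0, and sites were matched without gaps. The motif search was expectation maximisation of width 26 on both strands. Scripts were tested on simulated data. Samples were compared by exact permutation of the Gm13051 label over 18 samples. The genes named are the nearest to, or holding, the 10 highest peaks and the 10 highest beyond ETn, those with a peak beyond ETn at a coding exon or start, Chst1, Cd59a and proteins that share loci. Other genes were named after their values were seen. Members, lists and sites were chosen with earlier results of these data known. Of the named peaks beyond ETn, 1 is not reported here.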

Additional observations from a re-analysis of the deposited data

How the results depend on the processing

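Of 26 alternatives, 21 concern the 5 shares compared over samples. Their smallest possible p was 0.0556 to 0.0625, so no setting could pass 0.05 and only the direction could change, which 20 kept. With multi-copy set at 100 copies or more, the direction turned: 2.18% of Gm13051 peaks against a mean of 9.83% over the other FLAG samples (exact permutation p = 0.556). The share aligned to ETn ranged from 76.0% (90% identity over 150 bp) to 97.5% (fold of at least 40). The share with the reporter site ranged from 30.5% (at most 5 mismatches) to 93.8% (fold of at least 40). The count of 6 peaks beyond ETn with the core was 7 at 4 mismatches or in 400 bp windows, and the 4 shared loci stayed 4. The motif search and the list of genomic copies were added after the data were seen. No paired analysis was possible because each protein had 1 sample. No sample could be left out as a replicate for the same reason. Depth is unknown, so a locus or copy without a peak is not shown to be unbound, and copies were listed in mm9 and not in F9 cells.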
